A study of Mus musculus with 18 samples.

Results

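The contrast described here is the difference between KIKO and wild-type (WT) female mice in how gene expression in the arcuate nucleus changed after estradiol. It was formed, gene by gene, as the change from oil to estradiol in KIKO minus the same change in WT. It rests on 12 of the 18 libraries of the series, with 3 libraries in each of 4 groups. They are named here by genotype and injection, with E2 for estradiol. The other libraries come from ERα knockout (ERKO) mice and entered the fit to share its estimate of the spread. All mice carried the strain label C57/BL and were ovariectomized. The E2 groups were injected with estradiol benzoate, at 250 ng on day 5 from surgery and at 1500 ng on day 6, and the oil groups with the vehicle alone. Mice fasted for 1 h, and the arcuate nucleus was microdissected at 24 h from the later injection for sequencing of its total RNA. Neither the age of the mice nor the construction of their alleles is stated in the labels, and it is not stated whether each library came from its own animal. The p-values therefore measure the spread between these libraries, which may be partly technical.

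Estradiol acts in the brain mainly through ERα, a ligand-activated transcription factor encoded by Esr1. ERα can sit on estrogen response elements (EREs), inverted repeats in DNA to which it binds directly, or it can act through other DNA-bound factors such as AP-1 and Sp1 and through signalling at the membrane. In KIKO mice, by common usage of that name, 1 Esr1 allele is null and the other encodes a receptor mutated so that it no longer binds EREs. The title of the series names ERE-dependent and ERE-independent signalling as its question. The contrast asks which responses differ when ERα cannot bind the element and 1 of its alleles is null. In the arcuate nucleus, estradiol is known for restraining kisspeptin neurons in negative feedback and for acting on neurons that control feeding and growth hormone release.

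Values are FPKM, fragments scaled to transcript length and library size, as the authors deposited them. Changes are log2 values of FPKM + 1 with the standard error of the limma fit, so the changes of genes with low FPKM are smaller than the ratios of their means. Of 14775 genes tested, 20 passed an adjusted p of 0.05 for the difference (0.135%), 16 with a negative sign (0.108%) and 4 with a positive sign (0.0271%). At an unadjusted p under 0.05 there were 725 genes (4.91%), about the share that this cutoff would give if no gene differed. The library labelled ERKO E2 3 correlated with the rest at 0.919 to 0.954, against 0.963 to 0.994 among the 12 libraries of the contrast, and its FPKM summed to 628541 against 421849 to 492135 in those 12. Without it in the fit 42 genes passed, all 20 of the above and 22 more. The KIKO minus WT differences of those 22 genes were the same in both fits by construction, since ERKO libraries enter only the spread.

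Negative differences were genes that estradiol raised in WT and for which no KIKO change was detected. All 16 were among the 116 genes past the threshold for E2 against oil in WT (0.785% of the genes tested), and all 16 had a KIKO change whose 95% interval held 0. The difference and the WT change share the WT libraries, so their overlap is no separate evidence. The positive differences were of another kind. Kiss1, Syt12 and Ephb3 fell in WT and had KIKO changes that were smaller or of the other sign, and Gldn rose in KIKO and did not pass in WT. WT E2 and WT oil libraries did not overlap in any of the 20 genes, against 15.8% of all genes, and KIKO E2 and KIKO oil libraries did not overlap in 5 of the 20, against 7.41%. The 20 genes were chosen with these same libraries, so these shares are no separate evidence either.

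The promoters of the genes that carry the contrast are shown first, because the KIKO receptor is defined by a DNA sequence it cannot bind. Each is the 250 bases before a RefSeq start on GRCm38.p6, written 5′ to 3′ on the gene's strand. Capitals mark GGTCA, one arm of the ERE, or its complement TGACC, and TGANTCA, the AP-1 element. Greb1 (chr12:16800887-16801136, minus strand) had the smallest p with a negative sign, Rln3 (chr8:84044980-84045229, minus strand) the largest negative difference, and Mad2l1 (chr6:66534971-66535220, plus strand) 3 arms. Kiss1 (chr1:133326962-133327211, plus strand) and Gldn (chr9:54286236-54286485, plus strand) had the largest positive differences. Not shown are another RefSeq start of Greb1, with 2 arms, and Col24a1, which like Mad2l1 had 3. Of the negative genes, Fam151a, Gm13845, Phf21b and Cyp2s1 had no arm and are not shown.
Greb1: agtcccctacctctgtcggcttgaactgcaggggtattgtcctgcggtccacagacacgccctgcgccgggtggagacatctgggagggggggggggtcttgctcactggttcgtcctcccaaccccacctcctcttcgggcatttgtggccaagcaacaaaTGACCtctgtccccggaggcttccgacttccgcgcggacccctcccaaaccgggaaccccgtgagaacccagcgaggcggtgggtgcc
Rln3: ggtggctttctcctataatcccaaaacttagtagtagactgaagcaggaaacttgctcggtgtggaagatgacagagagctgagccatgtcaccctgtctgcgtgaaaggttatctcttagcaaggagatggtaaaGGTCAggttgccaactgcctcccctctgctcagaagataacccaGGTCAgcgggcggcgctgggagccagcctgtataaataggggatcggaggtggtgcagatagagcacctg
Mad2l1: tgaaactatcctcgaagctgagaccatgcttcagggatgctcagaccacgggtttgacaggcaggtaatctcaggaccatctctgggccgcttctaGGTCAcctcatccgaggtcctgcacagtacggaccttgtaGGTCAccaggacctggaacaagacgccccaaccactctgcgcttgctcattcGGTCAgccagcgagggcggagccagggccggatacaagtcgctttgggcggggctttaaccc
Kiss1: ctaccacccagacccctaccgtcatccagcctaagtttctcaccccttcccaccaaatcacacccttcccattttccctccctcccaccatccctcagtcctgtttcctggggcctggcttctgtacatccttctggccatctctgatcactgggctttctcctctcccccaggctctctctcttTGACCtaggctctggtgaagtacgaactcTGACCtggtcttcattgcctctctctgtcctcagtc
Gldn: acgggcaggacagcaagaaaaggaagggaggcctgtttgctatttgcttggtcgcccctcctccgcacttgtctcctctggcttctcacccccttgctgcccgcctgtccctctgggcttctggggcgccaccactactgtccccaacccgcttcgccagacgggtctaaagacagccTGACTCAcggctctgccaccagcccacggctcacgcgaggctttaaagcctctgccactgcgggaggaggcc

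Promoters were found for 11610 of the 14775 genes tested, 13 of the 16 with a negative and 3 of the 4 with a positive difference. A gene was counted where any of its listed starts held the letters, on either strand. The full palindrome GGTCANNNTGACC was in 0 of the 11610, so these windows say nothing about it. The arm GGTCA was in 9 of the 13 negative genes (69.2%), in 1 of the 3 positive genes and in 37.5% of all. Among genes that passed in WT it was in 30 of the 63 risen genes with a promoter (47.6%) and in 6 of the 19 fallen ones (31.6%). TGANTCA was in 1 of the 13, Tnxb, in 1 of the 3, Gldn, and in 5.48% of all. It was in 5 of those 19 fallen genes (26.3%) and in 4 of those 63 risen ones (6.35%). GGGCGG, the GC box of Sp1, was in 7 of the 13 and 1 of the 3, against 62.6% of all. Such matches describe letters only, and EREs commonly lie far from the start.

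Greb1, a coregulator that binds ERα and a classical estrogen target, had the smallest p. It was at 0.513, 0.237 and 0.676 FPKM in WT oil, 5.24, 4.80 and 6.29 in WT E2, 0.396, 0.245 and 0.288 in KIKO oil and 0.369, 0.373 and 0.406 in KIKO E2. The 3 WT E2 libraries stood above all 9 others, and the KIKO groups overlapped. Mean FPKM was 11.5-fold higher after E2 in WT, and the log2 change was 2.13 ± 0.13 in WT and 0.08 ± 0.13 in KIKO. Their difference was −2.05 ± 0.19 (limma adjusted p = 8.71e-05). Pgr, the progesterone receptor and the other classical target, had a difference of the same sign that missed the threshold (−1.32 ± 0.26, adjusted p = 0.0823). Pgr stood at 3.29, 4.59 and 5.44 FPKM in WT oil, 13.9, 15.5 and 18.1 in WT E2, 3.62, 4.23 and 3.81 in KIKO oil and 5.12, 5.47 and 4.76 in KIKO E2. Its KIKO groups did not overlap, and its KIKO change was 0.32 (95% interval −0.07 to 0.72). Pgr passed in the fit without ERKO E2 3 (adjusted p = 0.00377), and its adjusted p ran from 0.00196 to 0.244 over 26 alternatives.

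Among genes of secreted or membrane proteins, Rln3 encodes relaxin-3, a neuropeptide known for arousal and feeding. All 3 WT oil libraries listed it at 0, and the WT E2 libraries held 11.4, 16.4 and 9.47 FPKM. KIKO oil libraries held 0, 0.289 and 0.608 and KIKO E2 libraries 0.484, 0 and 0.434. Among the 4 groups, WT E2 held the sole libraries above 1 FPKM. Aqp5, a water channel, gave the same picture, with 0, 0.045 and 0 in WT oil, 5.78, 14.6 and 8.33 in WT E2, 0, 0.143 and 0.160 in KIKO oil and 0, 0.190 and 0.557 in KIKO E2. No fold is given for these genes because libraries listed at 0 enter the groups. Their differences, −3.70 ± 0.35 for Rln3 (adjusted p = 8.71e-05) and −3.13 ± 0.32 for Aqp5 (0.000197), were the largest of the 20 on this scale. Rxfp2, a receptor of the relaxin family, had a difference of −0.61 ± 0.26 that did not pass. Accn4 (Asic4 in current annotation), of the acid-sensing ion channel family, held 1.48, 1.36 and 1.12 FPKM in WT oil, 4.39, 5.93 and 4.65 in WT E2, 1.15, 1.49 and 1.43 in KIKO oil and 0.892, 1.55 and 1.18 in KIKO E2. Its WT E2 libraries were above all others, and its difference was −1.46 ± 0.22.

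Lrrc38, an auxiliary subunit of large-conductance potassium channels, also differed in its baseline. It was at 1.08, 0.997 and 0.823 FPKM in WT oil, 3.51, 5.07 and 3.58 in WT E2, 0.333, 0.181 and 0 in KIKO oil and 0.363, 0.342 and 0.190 in KIKO E2. All 6 KIKO libraries lay below every WT library. The difference was −1.19 ± 0.20 (adjusted p = 0.0226), and the gap under oil, KIKO minus WT, was −0.76 ± 0.14 and did not pass (adjusted p = 0.103). The call of Lrrc38 was lost in 7 of 12 fits without 1 library. It was also lost with a pseudocount of 0.1 or 0.5, under quantile normalization and with WT and KIKO libraries alone. Rab37, a small GTPase of secretory granules, rose 4.76-fold in WT from 0.425 ± 0.194 to 2.02 ± 0.347 FPKM (SD, n = 3), and held 0.594 ± 0.147 and 0.527 ± 0.0686 FPKM in KIKO. AI118078 (Tmem266) had 4.71, 5.60 and 4.39 FPKM in WT oil and 12, 13.3 and 10.9 in WT E2, with all 6 KIKO libraries between 3.49 and 4.22. Fam151a was at 4.76e-08, 0.349 and 0.192 FPKM in WT oil and 3.56, 6.91 and 4.37 in WT E2, with all 6 KIKO libraries at or below 0.0902. The differences of these genes were −1.15 ± 0.21 for Rab37, −1.15 ± 0.18 for AI118078 and −2.27 ± 0.24 for Fam151a.

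Of the extracellular matrix genes, Col24a1, a fibrillar collagen, had 0.544, 0.496 and 0.701 FPKM in WT oil, 5.82, 5.85 and 5.10 in WT E2, 0.224, 0.508 and 0.139 in KIKO oil and 0.314, 0.381 and 0.174 in KIKO E2. Its WT mean rose 9.64-fold, and its KIKO groups overlapped. Tnxb, the matrix glycoprotein tenascin-X, had 1.60, 2.27 and 2.01 FPKM in WT oil, 7.58, 9.27 and 7.96 in WT E2, 2.11, 1.78 and 1.46 in KIKO oil and 1.21, 1.89 and 1.65 in KIKO E2. Both differed between genotypes, by −2.05 ± 0.19 for Col24a1 (adjusted p = 8.71e-05) and −1.76 ± 0.24 for Tnxb (0.00428). Col2a1, the collagen of cartilage, did not pass and was among the 10 genes next in p (−1.44 ± 0.29, adjusted p = 0.0846). The summed markers of mural cells and fibroblasts ran over 26.8 to 151 FPKM in WT oil, 38.2 to 178 in WT E2, 41.5 to 125 in KIKO oil and 96.0 to 107 in KIKO E2, and 0 of 6 of them passed. Their part in these results was not tested. In such bulk tissue, fewer cells of a type and less RNA per cell cannot be told apart.

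Nuclear and cell cycle genes completed the group. Mad2l1, a subunit of the spindle assembly checkpoint, had 4.73, 2.51 and 5.18 FPKM in WT oil, 20.8, 23.7 and 19.8 in WT E2, 5.02, 3.76 and 3.29 in KIKO oil and 3.38, 3.15 and 3.91 in KIKO E2. The WT E2 libraries stood apart from the other 9, among which the groups overlapped. Its difference was −2.32 ± 0.26 (adjusted p = 0.00046). Of 9 tested mitotic genes Mad2l1 was the sole one to pass. Their differences were negative in 8 and positive in 1, with a median of −0.15. Nr4a2, or Nurr1, an orphan nuclear receptor of dopamine neurons, had 1.32, 2.25 and 2.53 FPKM in WT oil, 7.43, 8.92 and 8.39 in WT E2, 2.20, 1.48 and 1.48 in KIKO oil and 1.84, 1.60 and 1.00 in KIKO E2. Its 3 WT E2 libraries were the highest, and its difference was −1.76 ± 0.31 (adjusted p = 0.0308). That call was lost in 11 of 12 fits that left out 1 library, with adjusted p up to 0.19 over all alternatives. Th, the rate-limiting enzyme of dopamine synthesis, did not follow it (0.13 ± 0.28). Slc6a3, the dopamine transporter, had a difference of the other sign that did not pass (1.26 ± 0.32, limma adjusted p = 0.246). Its change was −1.01 in WT and 0.25 in KIKO.

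Phf21b, a PHD finger protein, was the 1 gene of the 16 whose KIKO groups did not overlap. It had 2.69, 2.10 and 3.76 FPKM in WT oil, 12, 13.8 and 12 in WT E2, 2.76, 3.13 and 3.35 in KIKO oil and 3.81, 3.93 and 3.96 in KIKO E2. The KIKO E2 libraries lay above the KIKO oil libraries by a small margin, and the KIKO change was 0.27 (95% interval −0.13 to 0.67) against 1.84 in WT. Ccdc36 (Iho1), known for meiotic recombination, and Cyp2s1, a cytochrome P450, rose in WT by 3.34-fold and 2.55-fold. In KIKO, Ccdc36 was at 1.12 ± 0.0437 FPKM in oil and 0.956 ± 0.223 after E2, and Cyp2s1 at 2.26 ± 0.235 and 1.80 ± 0.332. Gm13845 (Mkln1os), an antisense RNA to Mkln1, was 0.883, 0 and 0.165 FPKM in WT oil, 4.18, 2.25 and 2.85 in WT E2, 2.24, 2.08 and 1.85 in KIKO oil and 1.19, 1.98 and 1.75 in KIKO E2. All KIKO libraries thus lay above WT oil, with a gap of 1.23 ± 0.22 under oil that did not pass (adjusted p = 0.089). Whether counting used the strand is not given in the sources used here, so reads of this gene and of Mkln1 may be mixed.

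**Figure D1:**
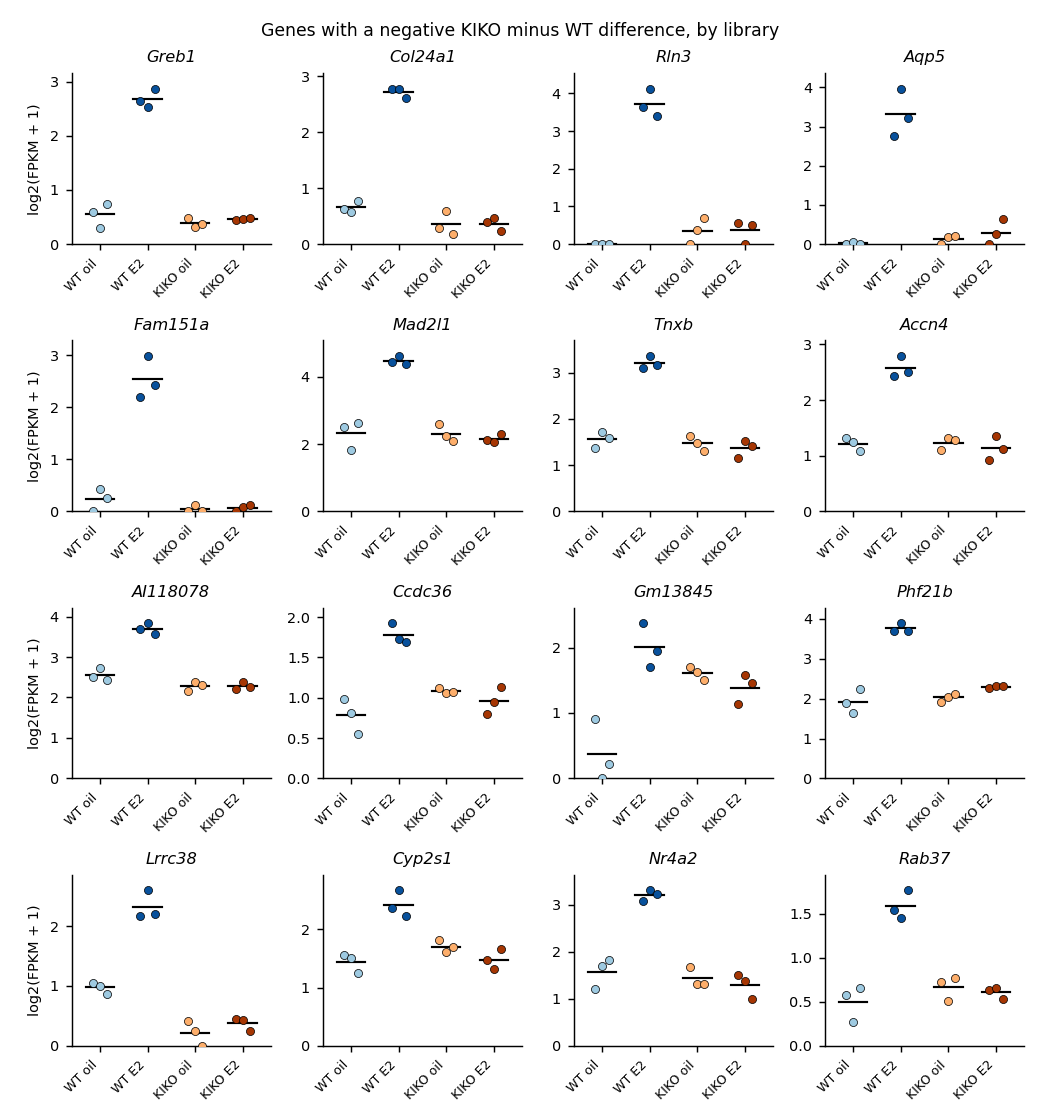
Expression as log2(FPKM + 1) on the y axis in each library of WT oil, WT E2, KIKO oil and KIKO E2 (x axis) for the 16 genes with a negative difference, with points for libraries and lines for group means. WT E2 libraries stand apart from WT oil libraries in each panel, and KIKO E2 libraries lie near the KIKO oil level.

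Across the 16 genes, the KIKO change ran from −0.22 for Cyp2s1 and Gm13845 to 0.27 for Phf21b, and the upper ends of the 95% intervals from 0.09 for Cyp2s1 to 0.67 for Phf21b. The WT changes of the same genes ran from 0.98 for Cyp2s1 to 3.72 for Rln3. Under E2, KIKO and WT differed past the threshold in 19 of the 20 genes of either sign, with Gm13845 as the exception, against 0.948% of all genes. Under oil, 0 of the 20 did, against 0.0135% of all. The 2 genes that passed under oil, Lhfpl1 and Timp1, were not among the 20. These contrasts share their libraries with the difference. Depth behind these values can be judged from the confidence bounds of the deposited tables, whose width implies a number of fragments. For Greb1 the implied numbers were 27.4 to 80.2 fragments in WT oil and 542 to 812 in WT E2, and for Kiss1 1704 to 2011 in WT oil and at most 245 in WT E2. Rln3 rested on 42.0 to 64.0 fragments in WT E2.

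Kiss1 encodes kisspeptin, the peptide by which arcuate neurons drive gonadotropin-releasing hormone. It had 520, 360 and 419 FPKM in WT oil, 34.8, 58.3 and 20.9 in WT E2, 483, 378 and 651 in KIKO oil and 280, 253 and 282 in KIKO E2. In both genotypes the E2 libraries lay below every oil library, and the oil groups overlapped. The mean fell 11.4-fold in WT and was 1.85-fold lower after E2 in KIKO, with log2 changes of −3.58 ± 0.32 and −0.85 ± 0.32. The KIKO change had a 95% interval of −1.53 to −0.18 and an adjusted p of 1.0 across all genes. The difference was 2.72 ± 0.45 (adjusted p = 0.019). Kiss1 lost this call in 6 of 12 fits without 1 library, leaving out the libraries numbered 1 of any of the 4 groups, KIKO oil 2 or KIKO E2 3 (adjusted p up to 0.0712).

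Syt12 and Ephb3 had opposite signs in the genotypes. Syt12, a synaptotagmin of synaptic vesicles, had 7.88, 6.95 and 8.26 FPKM in WT oil, 4.92, 4.95 and 4.15 in WT E2, 5.16, 5.07 and 5.25 in KIKO oil and 6.59, 6.38 and 7.77 in KIKO E2. Ephb3, a receptor tyrosine kinase for ephrin-B ligands, had 3.12, 3.49 and 2.74 FPKM in WT oil, 1.44, 1.62 and 1.46 in WT E2, 2.31, 2.29 and 2.30 in KIKO oil and 2.88, 2.75 and 3.30 in KIKO E2. For both genes E2 libraries were below oil libraries in WT and above them in KIKO, without overlap. All KIKO oil libraries lay below the WT oil libraries, with a gap of −0.49 for Syt12 (adjusted p = 0.141) and −0.31 for Ephb3 (0.306), and the KIKO E2 libraries lay between the KIKO oil and the highest WT oil libraries. The WT changes were −0.62 ± 0.11 and −0.71 ± 0.11, both past the threshold, and the KIKO changes 0.36 (95% interval 0.13 to 0.58) and 0.27 (0.04 to 0.50), neither past it. The differences were 0.97 ± 0.15 for Syt12 and 0.98 ± 0.15 for Ephb3 (adjusted p = 0.014 for each). Of 25 synaptotagmin and vesicle release genes tested, Syt12 alone passed, and of 19 ephrin receptors and ephrins Ephb3 alone, with median differences of 0.00 and 0.09. Calls were lost for Syt12 without KIKO oil 2 or KIKO E2 3 (adjusted p up to 0.0576) and for Ephb3 without those or without WT E2 1 (up to 0.0576). Syt12 also missed the threshold under quantile normalization (adjusted p = 0.0656), and Ephb3 with WT and KIKO libraries alone in the fit.

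Gldn, or gliomedin, a matrix protein known for gathering sodium channels at nodes of peripheral nerve, was the gene that rose in KIKO. It had 1.35, 0.774 and 1.75 FPKM in WT oil, 0.738, 0.750 and 0.646 in WT E2, 1.56, 2.12 and 2.70 in KIKO oil and 5.51, 8.46 and 11.1 in KIKO E2. The KIKO E2 libraries were the 3 highest of the 12 by a wide margin, and WT E2 the 3 lowest. The KIKO change was 1.55 ± 0.22 (adjusted p = 0.0441), the sole gene past the threshold in that arm, and the WT change −0.40 ± 0.22 did not pass. The difference was 1.95 ± 0.31 (adjusted p = 0.0146) and was lost without KIKO oil 1, KIKO oil 2 or WT E2 1 (adjusted p up to 0.0588). Gldn stood in the marker list of the neighbouring ventromedial nucleus. Its defining marker Nr5a1 was at 12.4, 9.58 and 4.37 FPKM in KIKO oil and 6.43, 12.4 and 5.50 in KIKO E2, which overlap, and 0 of the 5 other markers of that list passed. The KIKO change of Gldn passed in 12 of 26 alternatives, and its difference from WT in 22.

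**Figure D2:**
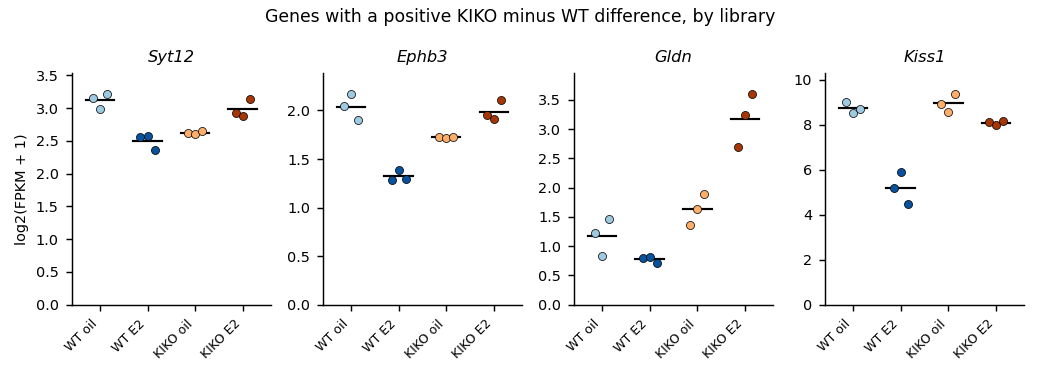
Expression as log2(FPKM + 1) on the y axis in each library of WT oil, WT E2, KIKO oil and KIKO E2 (x axis) for the 4 genes with a positive difference, with points for libraries and lines for group means. Syt12 and Ephb3 go down in WT and up in KIKO, Gldn goes up in KIKO, and Kiss1 goes down in both, by 3.58 in WT and 0.85 in KIKO on the log2 scale.

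The ERKO libraries give these values a frame in mice without ERα. They share no WT library with the KIKO arm, but the difference between KIKO and ERKO responses shares the KIKO libraries with the contrast. Of the 20 genes, 0 passed for KIKO minus ERKO in limma, as did 0 of all genes, where 323 had an unadjusted p under 0.05. The intervals of Gldn (1.87, 1.21 to 2.52) and Kiss1 (−1.44, −2.39 to −0.49) left 0. Without ERKO E2 3 they were 1.71 (1.07 to 2.36) and −1.20 (−2.20 to −0.21), joined by Syt12 at 0.37 (0.04 to 0.69). For the 16 negative genes the interval held 0 in each case, which does not show that KIKO and ERKO responded alike. Greb1, for example, had a KIKO minus ERKO difference of 0.13 with an interval of −0.27 to 0.53.

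Genes that fell in WT held a KIKO change of the same sign more often than genes that rose, though the 2 shares were not tested against each other. The 116 genes past the threshold in WT were 89 that rose and 27 that fell, a choice made on WT libraries apart from the spread. The KIKO arm has libraries of its own but shares that spread. A gene with a small spread passes more easily in WT and also has a narrower KIKO interval. The shares of all genes given below are therefore not a like comparison. Of the 27 fallen genes, 11 had a KIKO interval wholly below 0 (40.7%), against 0.399% of all genes, 2 had one above 0 (Syt12 and Ephb3) and 14 held 0. Of the 89 risen genes, 5 had a KIKO interval above 0 (5.62%), against 0.555% of all genes, and 84 held 0. KIKO groups did not overlap, in either direction, in 13 of the 27 (48.1%) and in 17 of the 89 (19.1%), against 7.41% of all genes. Of these, Ephb3 and Syt12 among the fallen genes and Col2a1, Grik1 and Sox11 among the risen genes were apart on the side opposite to WT. The median change of the fallen genes was −1.14 in WT against −0.23 in KIKO, with 0.15 in ERKO, and that of the risen genes 0.88, 0.03 and −0.02, where all genes had a median of 0.01 in WT and KIKO. None of these 16 genes passed the KIKO arm's own adjusted threshold in limma, where Gldn alone did and 141 genes had an unadjusted p under 0.05. That is fewer than a p of 0.05 would give if no gene changed, while the ERKO arm had 1068. The KIKO intervals rest on a spread shared with the ERKO libraries and may be too wide. A KIKO interval that held 0 therefore does not show that the gene was unchanged. The lists of fallen and risen genes both grow when the spread is estimated otherwise, and the share of fallen genes kept becomes smaller. Without ERKO E2 3 in the fit it was 16 of 113 fallen and 14 of 284 risen genes, with library weights 12 of 58 and 18 of 150, and with WT and KIKO libraries alone 12 of 49 and 10 of 146. Leaving out KIKO oil 3 reduced the fallen genes kept to 5, and WT E2 1 or KIKO E2 2 to 7.

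**Figure D3:**
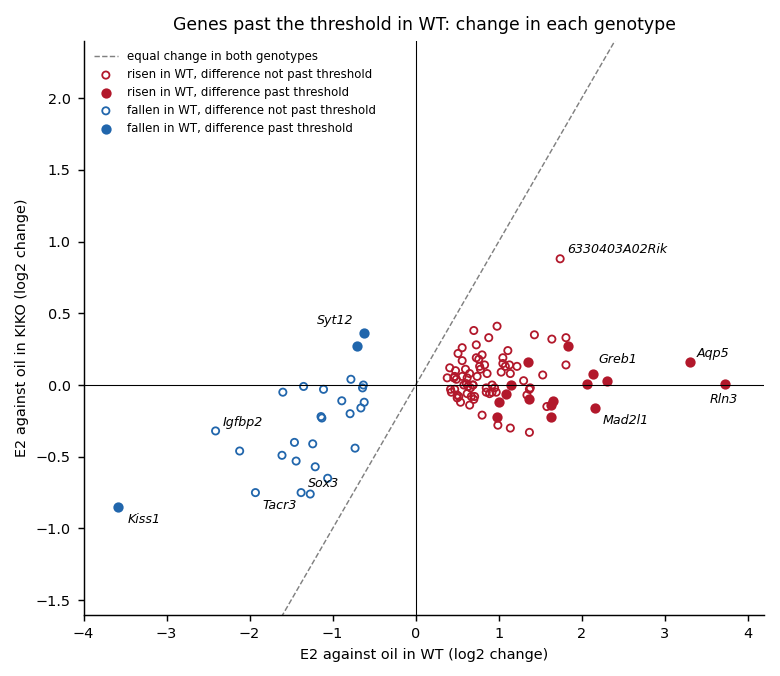
Log2 change after E2 in KIKO (y axis) against that in WT (x axis) for the 116 genes past the threshold in WT, red for the 89 risen and blue for the 27 fallen, filled where the difference passed. Risen genes scatter about 0 on the KIKO axis, and 24 of the 27 fallen genes lie below it.

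The 11 fallen genes with a KIKO interval below 0 were Kiss1, Tac2, Tacr3, Pcsk1, Vgf, Sox3, Bdnf, Nefm, Nxph3, Lhfpl1 and Tnfrsf11b. The first 5 belong to the list of kisspeptin and reproductive peptide genes. Tacr3, the receptor of neurokinin B, had 12.8, 8.53 and 18.1 FPKM in WT oil, 2.00, 3.10 and 2.70 in WT E2, 9.67, 10.5 and 14 in KIKO oil and 6.92, 6.09 and 5.94 in KIKO E2. Neither genotype's groups overlapped, and KIKO E2 lay between WT E2 and the oil groups. Its KIKO change was −0.75 ± 0.21 against −1.93 ± 0.21 in WT, and the difference 1.18 ± 0.29 did not pass (adjusted p = 0.214). Tac2, neurokinin B itself, had 1417, 1074 and 1278 FPKM in WT oil, 468, 628 and 532 in WT E2, 1109, 824 and 1288 in KIKO oil and 840, 583 and 736 in KIKO E2. Its KIKO groups overlapped, since KIKO E2 1 stood above KIKO oil 2. Pdyn, dynorphin, the remaining peptide of these neurons, had a KIKO change of −0.23 with an interval of −0.74 to 0.28 against −1.13 in WT. Its KIKO groups did not overlap, at 128, 121 and 165 FPKM in KIKO oil and 116 in each KIKO E2 library.

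Sox3, a transcription factor of neural progenitors and hypothalamus, had the smallest p of the fallen genes in KIKO. It was at 29.5, 29.7 and 27.4 FPKM in WT oil, 12, 10.8 and 8.95 in WT E2, 24.7, 27.3 and 33.9 in KIKO oil and 17.8, 18.1 and 14 in KIKO E2. The oil groups of the genotypes overlapped, and both E2 groups were lower without overlap. The KIKO change of −0.75 (95% interval −1.07 to −0.43) was smaller than the WT change of −1.38, with a difference of 0.63 (0.17 to 1.08) that did not pass. Bdnf, a neurotrophin, had 4.87, 3.62 and 5.59 FPKM in WT oil, 1.62, 1.54 and 0.925 in WT E2, 5.47, 5.02 and 6.56 in KIKO oil and 2.00, 3.97 and 3.04 in KIKO E2. Here too no E2 library reached an oil library of its genotype. The differences of Bdnf (0.50, −0.08 to 1.09), Pcsk1, a prohormone convertase (0.41, −0.27 to 1.09), Nefm, a neurofilament (0.29, −0.12 to 0.70), and Tac2 (0.64, −0.06 to 1.35) had intervals that held 0. Those intervals include no difference and also differences near the size of the WT change.

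The risen genes with a KIKO interval above 0 were 6330403A02Rik, Ezr, Ecel1, Pou3f1 and Ypel1. 6330403A02Rik (Stum) had 3.37, 5.07 and 3.92 FPKM in WT oil, 14, 17.5 and 16.7 in WT E2, 5.46, 4.90 and 5.50 in KIKO oil and 8.87, 9.94 and 13.5 in KIKO E2. It was the largest of the 5 in KIKO, with groups apart in both genotypes and a change of 0.88 ± 0.15 against 1.74 ± 0.15 in WT. Ecel1, an endopeptidase of neurons, was at 112 FPKM in each KIKO oil library and at 133, 129 and 149 in KIKO E2, a change of 0.28 (95% interval 0.04 to 0.52) against 0.73 in WT. Ezr, ezrin, which links membrane and actin, changed by 0.38 in KIKO against 0.70 in WT, and Pou3f1, a POU transcription factor, by 0.41 against 0.98.

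**Figure D4:**
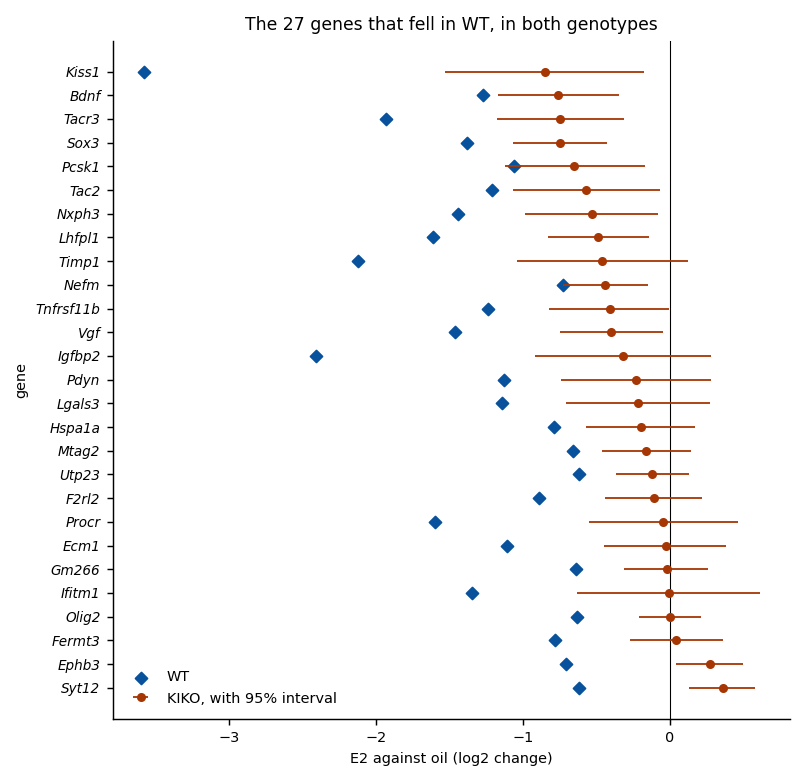
Log2 change after E2 (x axis) for each of the 27 genes that fell in WT (y axis), with diamonds for WT and circles with 95% intervals for KIKO, ordered by the KIKO change. Intervals of 11 genes lie below 0, those of Ephb3 and Syt12 above it.

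For some of the fallen genes the KIKO oil level lay near the WT E2 level. Timp1, an inhibitor of matrix proteases, had 15.8, 10.1 and 13.3 FPKM in WT oil and 2.69, 2.31 and 1.68 in WT E2, with 2.4, 2.43 and 3.40 in KIKO oil and 2.93, 0.699 and 1.96 in KIKO E2. All 9 libraries outside WT oil lay below it. Lhfpl1 had 2.22, 2.31 and 3.66 FPKM in WT oil and 0.161, 0.130 and 0.344 in WT E2, and KIKO oil, at 0.946, 0.490 and 0.618, lay between them. These were the 2 genes past the threshold for KIKO against WT under oil, at −1.90 ± 0.27 and −1.14 ± 0.16 (adjusted p = 0.0273 for each). Igfbp2, a carrier of insulin-like growth factors, had 29.8, 24.8 and 37.0 FPKM in WT oil, 4.01, 3.35 and 8.23 in WT E2, 8.52, 5.04 and 13.8 in KIKO oil and 6.88, 6.21 and 6.69 in KIKO E2. Its difference of 2.09 ± 0.40 (adjusted p = 0.0577) came with a gap under oil of −1.72 ± 0.28 (0.0816) and KIKO groups that overlapped. Procr, the protein C receptor, had the same form, a difference of 1.55 ± 0.34 with 1.62 ± 0.432 FPKM in KIKO oil against 5.56 ± 0.282 in WT oil. Over the 27 fallen genes the median of KIKO against WT under oil was −0.40, and over the 89 risen genes 0.00. The gap under oil uses the WT oil libraries that also enter the WT change, so the values are not independent. For Kiss1, Sox3 and Tacr3 the gap was 0.20, −0.02 and −0.15.

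The 10 genes next in p after the 20 were Syt6, Socs2, Igfbp2, Map3k15, Grik1, Pgr, Hs3st5, C130060K24Rik, Col2a1 and 3110079O15Rik, with adjusted p from 0.0539 to 0.0846. All but Igfbp2 had negative differences, from −1.73 for 3110079O15Rik to −0.90 for Syt6. Socs2, a brake on cytokine and growth hormone signalling, was at 8.58 ± 0.990 FPKM in WT oil and 18 ± 2.62 in WT E2, and at 6.02 ± 1.75 and 4.67 ± 0.505 in KIKO. Grik1, a kainate receptor subunit, was at 5.45, 6.94 and 7.43 FPKM in WT oil and 11.4, 12.1 and 13.0 in WT E2, with 7.03, 7.64 and 6.95 in KIKO oil and 6.55, 6.4 and 5.42 in KIKO E2. Its KIKO E2 libraries lay below the KIKO oil libraries without overlap, and its KIKO change of −0.21 had an interval of −0.51 to 0.09. The KIKO groups of Socs2 overlapped. Of the 22 genes past the threshold in the fit without ERKO E2 3 alone, 17 were negative and 5 positive. They took in Pgr, Socs2, Col2a1, Syt6, Grik1 and Oxtr, the oxytocin receptor (−1.40 ± 0.28, adjusted p = 0.0455), and, with positive sign, Procr, Igfbp2, Vgf, Olig2 and Jun. Jun, an AP-1 subunit, had 33.3, 37.8 and 33.9 FPKM in WT oil, 27.7, 27.7 and 24.2 in WT E2, 25.9, 26.1 and 25.6 in KIKO oil and 32.7, 29.6 and 29.9 in KIKO E2. As with Syt12 and Ephb3, its E2 libraries were lower than oil in WT and higher than oil in KIKO (difference 0.63 ± 0.15, adjusted p = 0.199 with all libraries).

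Gene lists place these members among their pathways. Among 27 tested genes known for estrogen induction, 5 rose and 0 fell in WT, where 89 rose and 27 fell of the 14775 genes tested (0.785% in all). In the difference 1 was negative (Greb1) and 0 positive, against 0.135% of all genes in either direction, with a median of −0.18 against −0.00 for all genes. The counts of the lists that follow stand against the same shares. Besides Greb1 and Pgr, the risen ones were Myc, a growth-promoting transcription factor (difference −1.09 ± 0.22), Oxtr, and Cckar, a cholecystokinin receptor (−0.58 ± 0.23). Among 19 kisspeptin and reproductive peptide genes, 6 fell and 0 rose in WT, and Kiss1 alone passed in the difference, with a list median of 0.15. Of 23 genes of dopamine, prolactin and growth hormone signalling, 4 rose in WT and Nr4a2 alone passed in the difference. Stat5a, the transducer of prolactin and growth hormone signals, was one of the risen and had a difference of −0.96 ± 0.26 (adjusted p = 0.374). In the list of AP-1, Sp, CREB and immediate early factors, through which ERα can act without its own element, 1 of 29 passed, Nr4a2 again, and the median was −0.01. That list held 14 positive and 15 negative differences, such as Arc (1.01 ± 0.27) and Fosl2 (−0.94 ± 0.28), neither past the threshold. Of 36 matrix genes 2 were negative and 1 positive, with a median of 0.19. At an unadjusted p under 0.05 stood 24.1% of the AP-1, Sp and CREB list, against 4.91% of all genes. The share was 25.9% for estrogen induction, 26.3% for the peptide list, 26.1% for the dopamine list and 19.4% for the matrix list. It was lower for the synaptotagmin, ephrin and mitotic lists, though above that of all genes. The lists were chosen with earlier results of these data known. Their shares and counts are therefore no evidence of an excess over all genes.

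Several lists held 0 genes past the threshold in the difference. These were 18 receptors and coregulators, 30 energy balance genes, 29 potassium channel genes, 24 calcium, HCN and TRP channel genes and 29 GABA and glutamate genes, with medians from −0.04 to 0.05. At an unadjusted p under 0.05 their counts were 0, 2, 2, 2 and 2, or 0%, 6.67%, 6.9%, 8.33% and 6.9%, near the 4.91% of all genes. Ghsr, the ghrelin receptor, of the energy balance list, rose 3.21-fold in WT and stood at 3.79 ± 0.782 and 4.0 ± 0.605 FPKM in KIKO, with a difference of −1.47 ± 0.47 that did not pass (adjusted p = 0.609). Esr1 itself had a difference of 0.47 ± 0.46. It was at 5.38, 6.92 and 11.9 FPKM in WT oil, 3.45, 5.24 and 5.88 in WT E2, 2.91, 4.08 and 3.94 in KIKO oil and 3.05, 3.89 and 2.85 in KIKO E2, so that the WT groups overlapped and the KIKO groups too. Every KIKO oil library lay below every WT oil library, with a gap under oil of −0.91 ± 0.32 that did not pass (limma adjusted p = 0.329). Lost binding to the element and a lower amount of receptor cannot be told apart in this contrast. FPKM does not tell an altered transcript from an intact one. Esr2, encoding ERβ, was at or below 0.497 FPKM in the 12 libraries and was not tested.

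The feeding and growth hormone peptides of the arcuate nucleus gave no difference past the threshold, with wide intervals. Agrp, the orexigenic agouti-related peptide, had a difference of −0.70 (95% interval −1.67 to 0.28) and Ghrh, growth hormone-releasing hormone, −0.68 (−1.46 to 0.11). Agrp held 174, 165 and 198 FPKM in WT oil, 337, 266 and 255 in WT E2, 164, 159 and 130 in KIKO oil and 115, 106 and 260 in KIKO E2. Its WT groups were apart, and KIKO E2 3 stood high above the other KIKO E2 libraries. Pomc, the precursor of melanocortins, and Cartpt, another satiety peptide, had positive differences of 0.60 (−0.15 to 1.36) and 0.65 (−0.23 to 1.53). Npy, Sst, Th, Gal and Prlr had differences from −0.22 to 0.13, whose sign turned in at least 1 alternative each. Gal, galanin, was lower in KIKO than in WT under E2 (−1.38, adjusted p = 0.0288), at 123 ± 22.8 against 319 ± 27.2 FPKM. Its gap under oil was −1.43 and did not pass (adjusted p = 0.118).

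The arcuate markers Pomc, Agrp, Ghrh, Tbx3 and Bsx were present in all 12 libraries, Bsx as the lowest at 11.3 to 20.8 FPKM. Pituitary markers spread widely within the groups. The 8 pituitary and pars tuberalis markers summed to 3.31 to 365 FPKM in WT oil, 2.79 to 359 in WT E2, 44.3 to 222 in KIKO oil and 147 to 338 in KIKO E2, mostly from Cga, the glycoprotein hormone subunit. Cga was at 0, 170 and 307 FPKM in WT oil and at 0, 0.424 and 294 in WT E2, while the lactotroph and somatotroph hormones Prl and Gh were at or near 0. The 6 tested members had a median difference of 1.87, 0 of them passed, and their part in the results was not tested beyond 1 fit. In that fit, with Cga as a covariate, an alternative chosen after seeing the data, 24 genes passed in the difference, and Rab37 was the 1 gene of the 20 that did not. Of 17 marker lists, members passed in the arcuate list (Kiss1) and the ventromedial list (Gldn). Some lists had a median difference far from 0 with 0 members past the threshold. The 4 markers of the suprachiasmatic nucleus, a neighbour of the arcuate nucleus, had a median of −1.35, the sign of the 16 negative genes. They summed to 29.7 to 137 FPKM in WT oil, 96.7 to 165 in WT E2, 108 to 132 in KIKO oil and 20.1 to 146 in KIKO E2, so that the groups of each genotype overlapped. The 1 tested preoptic and septal marker had a difference of −0.87, and the mural and fibroblast markers a median of 1.01. The part of these tissues in the results was not tested.

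**Figure D5:**
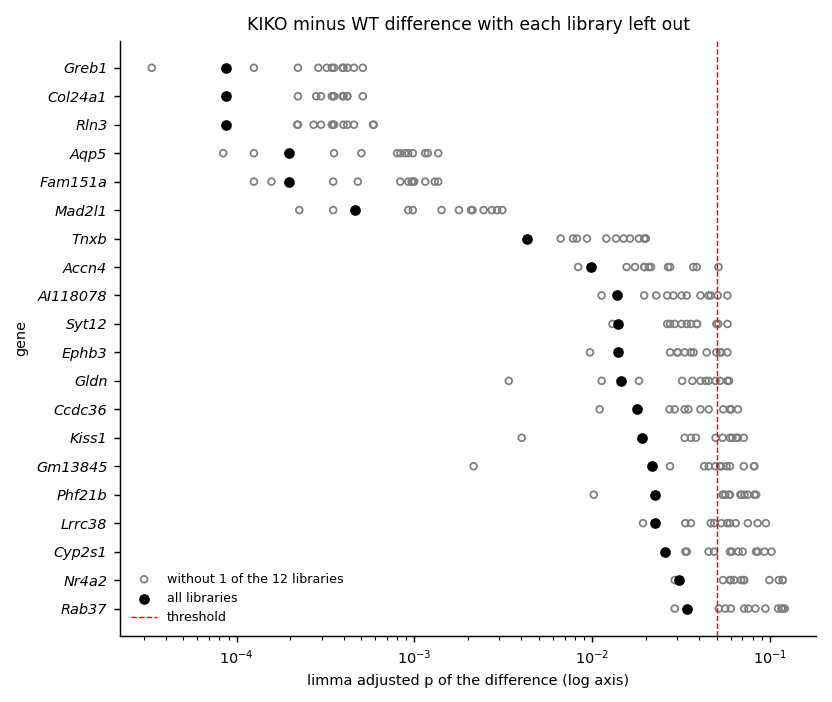
limma adjusted p of the difference (x axis, log scale) for the 20 genes (y axis), with filled points for the fit of all libraries and open circles for the 12 fits without 1 library each. For the upper 7 genes, Greb1 to Tnxb, all 12 circles lie left of the threshold of 0.05, and for the other 13 at least 1 lies right of it.

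How firmly the 20 genes hold differed among them. Greb1, Col24a1, Rln3, Aqp5, Fam151a, Mad2l1 and Tnxb passed in all 12 fits that left out 1 library, and Greb1, Aqp5, Mad2l1 and Tnxb in all 26 alternatives as well. The other 13 lost their call in at least 1 fit without a library. Phf21b, Nr4a2 and Rab37 lost it in 11 of 12, Cyp2s1 in 8, Lrrc38 and Gm13845 in 7, Kiss1 in 6 and Ccdc36 in 5. All 20 kept their sign throughout. The number of genes past the threshold was 7 without KIKO oil 2, 11 without KIKO oil 1, KIKO E2 1 or WT E2 1, and 12 without KIKO E2 3, and at most 25, without WT oil 3.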

How the data were processed

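RNA-seq of microdissected arcuate nucleus was analysed from FPKM values, which the authors deposited as 1 table per library. Per the submitters' processing notes, TopHat2 2.0, Cuffdiff and the mm10 build were used; strand handling and annotation are not given in the sources used here. The deposited tables hold no read counts, so the depth is unknown apart from fragments implied by their confidence bounds. In 70.9 to 72.6% of values these came out whole within a tolerance of 0.02, and no count test was run. The 23699 entries were summed to 23235 symbols, of which 99.0% matched RefSeq. Small RNA genes were left out, and genes with a mean FPKM of at least 0.5 (14775) were fitted on log2(FPKM + 1) with limma 3.58.1 in R 4.3.3, with 12 residual degrees of freedom over the 18 libraries. The threshold was a Benjamini-Hochberg adjusted p of 0.05 over all genes. The members, 14 gene lists and 17 marker lists were chosen with earlier results of these data known. Named were every gene past the threshold (clone-named ones by name and value only), the 10 next by p, an arcuate panel, up to 4 leading genes per list besides those past the threshold, genes past it in WT with the strongest same-sign, most similar or opposite KIKO changes, the 10 leading genes of the fit without ERKO E2 3, and the leading KIKO genes. Other named genes, such as Olig2 and the markers, were chosen after their values were seen. Alternatives covered the pseudocount, filter, scaling, variance model, libraries in the fit, each library left out and a replicate block. The fit was tested on simulated data. Gene positions in the tables were not used, and promoters came from RefSeq on GRCm38.p6. Tables and figures were made with Python 3.11.15, numpy 2.4.6, pandas 2.3.3 and matplotlib 3.10.9.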

Additional observations from a re-analysis of the deposited data

Results flagged for a closer look

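The 20 genes below are listed because the test of the difference itself, the change after estradiol in KIKO minus that in WT, passed the adjusted threshold in limma. Negative values, a smaller or absent rise in KIKO, were found for Greb1 (−2.05), Col24a1 (−2.05), Rln3 (−3.70), Aqp5 (−3.13), Fam151a (−2.27), Mad2l1 (−2.32), Tnxb (−1.76), Accn4 (−1.46), AI118078 (−1.15), Ccdc36 (−1.12), Gm13845 (−1.85), Phf21b (−1.57), Lrrc38 (−1.19), Cyp2s1 (−1.21), Nr4a2 (−1.76) and Rab37 (−1.15). Positive values were found for Kiss1 (2.72), Gldn (1.95), Ephb3 (0.98) and Syt12 (0.97). Groups of 3 libraries are too small for the search for single stray samples. Among these genes, Ephb3, Syt12 and Gldn have E2 and oil libraries apart in both genotypes with the 2 genotypes on opposite sides of 0.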

How the results depend on the processing

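The 20 genes kept their sign in all 26 alternatives. Against 20 genes past the threshold in the difference, a pseudocount of 0.1 gave 9, no filter on low values 31, library weights 59, and the fit without ERKO E2 3 42. Leaving out 1 library gave 7 to 25. For E2 against oil in WT the count of 116 became 208 with library weights, 195 with WT and KIKO libraries alone, 397 without ERKO E2 3 and 71 to 152 without 1 library. The 1 gene past the threshold in KIKO became 0 with a pseudocount of 0.1 or 0.5, with WT and KIKO libraries alone, with the replicate block or with Cga as a covariate, 3 with no filter, 4 with library weights, and 0 to 1 without 1 library. Fallen genes with a KIKO interval below 0 numbered 5 to 11 without 1 library. Risen genes with one above 0 numbered 18 with library weights, 10 with WT and KIKO libraries alone, 14 without ERKO E2 3 and 2 to 6 without 1 library. Differences that turned sign, none past the threshold, were those of Npy (−0.55 to 0.00 without 1 library), Sst (−0.15 to 0.11, and 0.11 with Cga as a covariate), Th (−0.05 to 0.27), Gal (−0.10 to 0.20) and Prlr (−0.33 to 0.04). The cause of these shifts was not tested. Whether equal replicate numbers pair the libraries is not known. Deviations of libraries with the same number correlated at −0.367 to 0.383 over 18 pairs, 4 of them over 0.1. Those 4 were all oil and E2 pairs within a genotype, WT 1 (0.29), WT 3 (0.383), KIKO 2 (0.313) and KIKO 3 (0.172). The remaining such pairs, WT 2 and KIKO 1, were at −0.181 and −0.0752. Libraries of unlike number were not compared, so a shared batch of oil and E2 libraries was not tested. With the replicate block 19 genes passed in the difference, and Phf21b, Cyp2s1 and Nr4a2 of the 20 did not, so others took their place. FPKM without counts and 3 libraries a group limit the precision, most of all for genes near 0.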
